A study of Mus musculus with 24 samples.

Results

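The comparison described here set wildtype mouse hearts with an ischemia of 30 minutes followed by reperfusion for 60 minutes, named I30R60, against wildtype sham hearts. The groups were taken from the sample labels, and they held 3 arrays each, which is 6 of the 24 arrays of the series. Each array measured RNA of 1 left ventricle as RMA values, which are log2 intensities that the authors normalized over all arrays. The comparison covered 18820 genes, and a gene was counted as higher or lower at a Benjamini-Hochberg adjusted p under 0.05 in limma, which pools the spread between hearts over all groups. Changes are I30R60 minus sham in log2 units, where 1 is a 2-fold change, and SE is the standard error of the fit.

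The study asked how ischemia and reperfusion change gene expression in hearts with and without the circadian protein Per2. All mice were adult males on a C57BL6 background, labelled BL6C57, and were killed at the same time of day. In the I30R60 hearts the left coronary artery was closed by a hanging weight and then opened again, and the controls are labelled as untreated and also as sham operated. The length of any surgery on the controls is not given. Effects of surgery and anesthesia can therefore not be fully told apart from those of ischemia with reperfusion. Neither group carried a targeted allele. For reference the text also uses wildtype hearts with 30 minutes of ischemia and no reperfusion (I30), wildtype hearts given 4 short ischemic periods, each of 5 minutes and each with a reperfusion of the same length (IP0), and sham and I30R60 hearts of Per2-/- mice, labelled Per2 KO. These groups also held 3 arrays each. The samples are whole left ventricles with many cell types, so that fewer cells of a type and less RNA per cell cannot be told apart.

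Restored blood flow brings oxygen, leukocytes and platelets back to heart muscle that was without them. In such tissue the first genes to respond are known to be immediate early genes, whose transcription needs no new protein and whose RNA is short-lived. They are followed by genes for cytokines, adhesion molecules and chaperones, many of them under the control of AP-1, CREB, NF-kB, STAT3 or heat shock factor 1.

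The 6 arrays resembled each other closely. The interquartile range of the RMA values was between 4.01 and 4.11, correlations between hearts of the same group were 0.985 to 0.987 in sham and 0.984 to 0.986 in I30R60 hearts, and those between the groups were 0.979 to 0.984. The 7 measured markers of heart muscle cells, such as Tnni3, had mean levels of 12.74 to 12.77 in sham and 12.71 to 12.77 in I30R60 hearts, and none of them was called. Atrial muscle markers were uneven in the sham hearts, with list means of 6.89, 5.51 and 5.34, against 5.05 to 5.14 in the I30R60 hearts. The myosin light chain gene Myl7 stood at 8.24, 5.22 and 3.73 in sham and at 2.97, 3.52 and 3.15 in I30R60 hearts. Sham replicates 1 and 2 are therefore left out together in an alternative fit, which keeps 1 sham heart.

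After I30R60, 312 genes rose and 152 fell, which is 1.66% and 0.808% of the genes tested. The rises were larger than the falls. The genes that rose had a median change of 0.92 log2 units and those that fell one of -0.53, beside -0.02 over all genes. A change of at least 2-fold was called for 131 genes that rose and 4 that fell, which is 0.696% and 0.0213% of the genes tested. Of the rises, 24 were at least 4-fold and 9 at least 8-fold, and no gene fell 4-fold. All I30R60 arrays lay above all sham arrays in 311 of the 312 genes that rose. They lay below them in 151 of the 152 that fell. Among all genes tested these counts were 1513 and 2060. The largest rises and falls were named only where the arrays did not overlap. Protein-coding genes that rose at least 2-fold had a median length of 8.51 kb in the genome, beside 19.5 kb for all protein-coding genes tested, 14.4 kb for all that rose and 20.3 kb for those that fell. The total of 464 called genes was 256 without I30R60 replicate 1, 275 without sham replicate 1 and 292 without sham replicate 3. With only sham replicate 3 kept as control, 135 genes were called, of which 126 were among the 464 in the same direction. Many of the named genes with a call against sham were not called in that fit. They include most of those described below as lost without 1 array, and also Ptgs2, Icam1, Tnfaip3, Hsph1, Dnaja1, Hspb1, Hbegf, Dusp5, Klf2, Clec4e, Cxcl5, Tfpi2, Slc16a3, Cpt1a, Ehhadh, Snord118, Zfp46, Zfp113, Zfp799 and Lekr1. The 112 named genes followed through the alternatives include Per2, which the study names and which was not called against sham. A fit of the 6 compared arrays alone lost the calls of 37 of the 112.

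**Figure D1:**
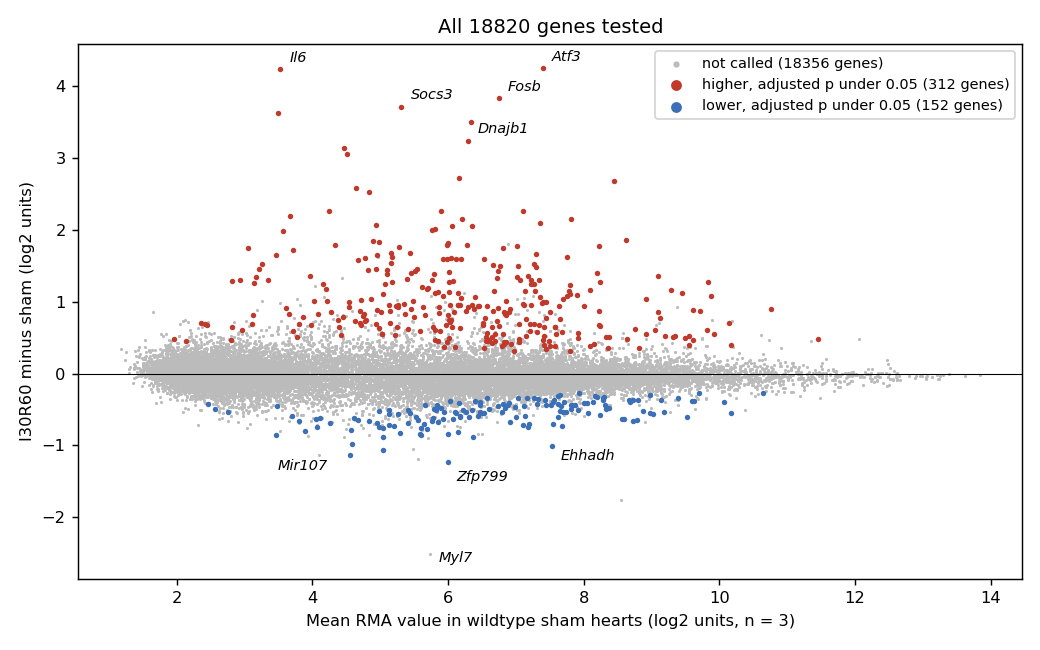
Each point is a gene, with its mean RMA value in the 3 wildtype sham hearts (log2 units) on the x axis and the I30R60 minus sham difference (log2 units) on the y axis. The 312 called rises reach 4.25 and the 152 called falls reach -1.24, and the larger difference of Myl7 is not called.

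Immediate early transcription factors were among the largest rises. Of the 14 measured genes of the AP-1 family, the dimeric factors built from Fos, Jun, ATF and Maf proteins, 9 rose and none fell, with a median change of 1.13 over the list. Atf3, a stress-induced member of this family, had values of 7.48, 7.93 and 6.80 in the sham hearts and 11.71, 11.54 and 11.71 in the I30R60 hearts. The groups were far apart, and the I30R60 hearts were nearly equal. Its rise of 4.25 (SE 0.28, adjusted p = 2.52e-08) is a 19-fold change. Fosb had values of 6.50, 7.43 and 6.31 in the sham hearts and 10.62, 10.54 and 10.60 after I30R60, a rise of 3.84 (SE 0.49, adjusted p = 6.59e-05). Fos, which like Fosb pairs with Jun proteins, had values of 6.56, 7.28 and 5.20 and 9.98, 9.60 and 9.97 in the same order, and rose by 3.51 (SE 0.36, adjusted p = 6.18e-06). In Atf3, Fosb and Fos, sham replicate 2 was the highest of the sham hearts and replicate 3 the lowest. Jun started from a higher level, with 8.63, 8.63 and 8.08 in the sham hearts, and reached 11.12, 11.03 and 11.23 after I30R60, a rise of 2.68 (SE 0.18, adjusted p = 2.52e-08). Junb, Fosl2, Maff, Jund and Mafk also rose, between 0.68 and 1.66. Batf, Batf3, Mafg, Jdp2 and Atf2 were not called.

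Nuclear receptors of the NR4A family, which bind DNA without a known hormone, rose as well. All 3 members passed the test. Nr4a3 had values of 6.93, 7.28 and 6.24 in the sham hearts and 8.41, 8.53 and 8.75 in the I30R60 hearts, a rise of 1.75 (SE 0.30, adjusted p = 0.00206). Nr4a2 rose by 1.46 (SE 0.24, adjusted p = 0.00158) and Nr4a1 by 1.36 (SE 0.24, adjusted p = 0.00209). Of 14 EGR, KLF and SRF transcription factors and related genes, 5 rose and none fell, with a list median of 0.35. Egr1, a zinc finger factor of the early response, had values of 9.29, 9.35 and 9.24 in the sham hearts and 10.46, 10.29 and 10.61 in the I30R60 hearts, with little spread in either group, and rose by 1.16 (SE 0.11, adjusted p = 4.59e-06). Klf2 and Klf4, known from the endothelial response to flow, rose by 0.86 and 0.94, and Klf6 by 1.09 and Ier2 by 1.20. The call of Klf4 ended without sham replicate 2 or I30R60 replicate 3 (adjusted p up to 0.0568).

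**Figure D2:**
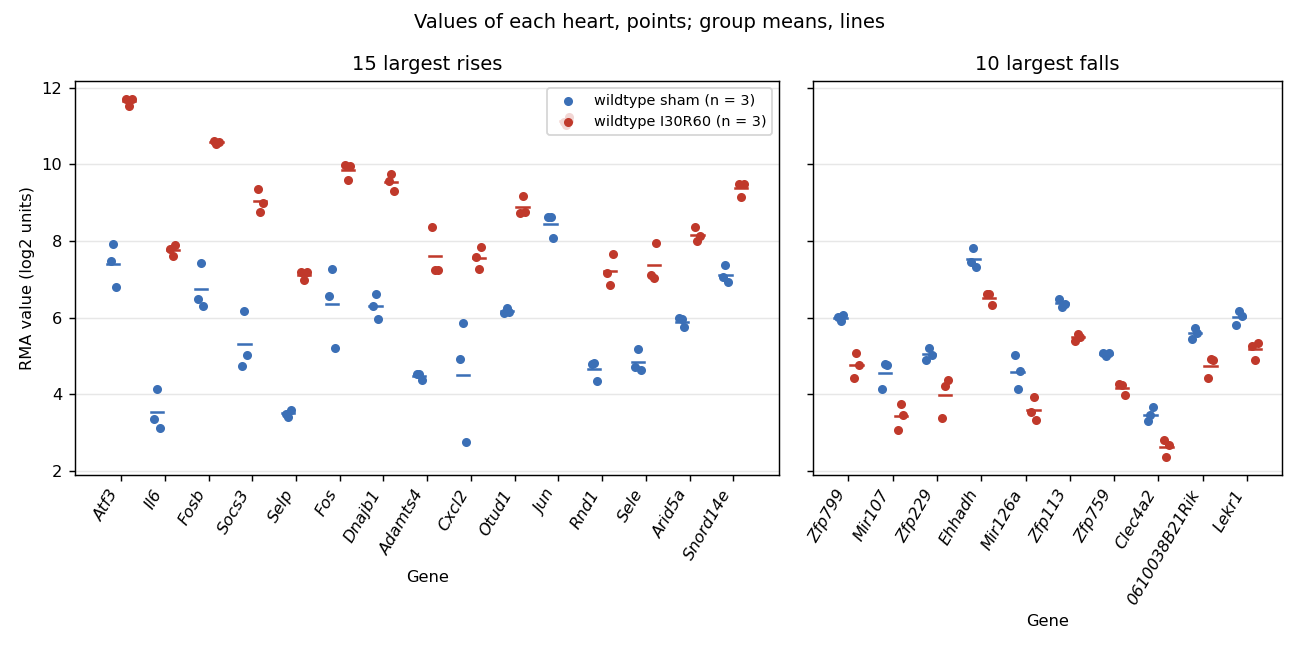
RMA values (log2 units, y axis) of each wildtype sham heart (blue) and each wildtype I30R60 heart (red) for the 15 largest rises and the 10 largest falls among called genes whose groups do not overlap, with lines at the group means. Atf3 lies at 6.80 to 7.93 in the sham hearts and above 11.5 in all I30R60 hearts, while no gene of the right panel falls by more than 1.24 on average.

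Some genes that limit such a response rose together with it. Of 12 measured genes in a list of mRNA decay proteins, early brakes and other early genes, 10 rose and none fell, with a list median of 0.97. Zfp36, the tristetraprolin that marks cytokine mRNAs for decay, had values of 7.89, 7.95 and 7.45 in the sham hearts and 9.28, 9.14 and 9.75 after I30R60, and rose by 1.63 (SE 0.19, adjusted p = 2.70e-05). Zc3h12a, the ribonuclease Regnase-1, rose by 1.01 (SE 0.16, adjusted p = 0.000994). Ier5, which takes part in the regulation of heat shock factor 1, went from 5.81, 5.92 and 5.55 to 7.85, 7.73 and 7.68, a rise of 2.00 (SE 0.22, adjusted p = 1.23e-05). Arid5a, an RNA-binding protein that is known to stabilize Il6 mRNA and so acts the other way, rose by 2.27 (SE 0.23, adjusted p = 6.12e-06). By contrast only 1 of 16 MAP kinase phosphatases and kinase brakes rose and 1 fell, with a median of 0.36. Dusp5, a phosphatase of nuclear ERK, rose by 1.14 (SE 0.19, adjusted p = 0.00147), and Spred2 fell, with a change of -0.41 (SE 0.09, adjusted p = 0.0116), which was not called without sham replicate 1 or I30R60 replicate 3 (adjusted p up to 0.0998).

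Of 19 measured genes of growth arrest, p53 and DNA damage responses, 8 rose and none fell, with a median of 0.49. The members that rose are mostly early response genes. Gadd45g, a stress sensor of the Gadd45 family, had values of 7.39, 7.64 and 7.06 in the sham hearts and 9.57, 9.25 and 9.53 in the I30R60 hearts, and rose by 2.09 (SE 0.22, adjusted p = 8.28e-06). Its relatives Gadd45a and Gadd45b rose by 1.07 and 1.17. The antiproliferative gene Btg2, which an mRNA decay list also holds, rose by 1.86 (SE 0.20, adjusted p = 8.24e-06), Myc by 1.78 (SE 0.29, adjusted p = 0.00114) and Plk2, a polo-like kinase, by 1.34 (SE 0.14, adjusted p = 6.18e-06). The p53 targets Cdkn1a, Mdm2, Bbc3 and Ccng1 were not called.

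Interleukin-6 and its feedback inhibitor rose more than most genes of their pathway. Il6, the ligand, had values of 3.34, 4.13 and 3.13 in the sham hearts and 7.80, 7.62 and 7.90 in the I30R60 hearts. All I30R60 hearts lay far above all sham hearts. The rise was 4.24 (SE 0.47, adjusted p = 1.54e-05). The sham values lie below the median of all values on the arrays, 4.44, so the fold change of Il6 is uncertain. Socs3, the feedback inhibitor of this pathway, went from 4.74, 6.18 and 5.02 to 9.35, 8.75 and 8.99, a rise of 3.72 (SE 0.38, adjusted p = 6.26e-06). Again sham replicate 2 was the highest control. Osmr, the oncostatin M receptor, rose by 1.11 (SE 0.17, adjusted p = 0.000612), the kinase gene Pim1 by 1.30 (SE 0.22, adjusted p = 0.00178), and the signalling genes Stat3 and Jak2 by 0.47 and 0.43. Together with Bcl3 these are 7 of 19 measured genes, none fell, and the median was 0.26. The receptor chains Il6ra and Il6st and the ligands Il11, Lif and Osm were not called.

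Of 14 measured TNF and interleukin-1 ligands and receptors, 6 rose and none fell, with a median of 0.59, but only 1 rose without sham replicate 1 or 3 or I30R60 replicate 1, and 3 without I30R60 replicate 3. Il1b, the inflammatory ligand, had values of 4.96, 5.14 and 4.84 in the sham hearts and 7.00, 6.33 and 7.11 in the I30R60 hearts and rose by 1.83 (SE 0.39, adjusted p = 0.0116). The antagonist Il1rn and the receptors Il1r1, Il1r2 and Il17ra rose by 0.67 to 1.27. Tnf went from 4.64, 5.32 and 4.07 to 6.35, 5.94 and 6.49, a rise of 1.58 (SE 0.38, adjusted p = 0.0258). The highest sham heart was again replicate 2. The calls of Il1b and Tnf ended without sham replicate 3, I30R60 replicate 1 or I30R60 replicate 3, and that of Tnf also without sham replicate 1, with adjusted p values up to 0.0674 and 0.154. Those of Il1r1, Il1r2 and Il17ra ended without sham replicate 1 or I30R60 replicate 1, those of Il1r1 and Il1r2 also without sham replicate 3, and that of Il1r2 also without sham replicate 2 (adjusted p up to 0.0759, 0.135 and 0.093).

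NF-kB is a transcription factor that is held in the cytoplasm by inhibitor proteins, whose genes it activates in turn. Of 19 measured subunits and regulators 7 rose and none fell, with a median of 0.48. Those that rose are the subunit Rel, the inhibitor genes Nfkbia, Nfkbie and Nfkbiz, the related Bcl3, the ubiquitin-editing enzyme Tnfaip3 and the survival gene Birc3. Tnfaip3 had values of 5.12, 5.30 and 5.09 in the sham hearts and 6.75, 6.50 and 7.29 in the I30R60 hearts, and rose by 1.68 (SE 0.27, adjusted p = 0.00122). Bcl3 rose by 1.60 (SE 0.22, adjusted p = 0.0002) and Birc3 by 1.12 (SE 0.14, adjusted p = 5.87e-05). The call of Nfkbie ended without sham replicate 3 or I30R60 replicate 3 (adjusted p up to 0.0573). The subunit genes Rela, Relb and Nfkb2 were not called.

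CXC chemokines, which attract leukocytes, had a median change of 0.33, and 5 of 19 ligands and receptors rose and none fell. The count was 3 without sham replicate 2 or 3 or I30R60 replicate 1, and 2 without I30R60 replicate 3. Cxcl2 had values of 4.91, 5.85 and 2.76 in the sham hearts and 7.57, 7.27 and 7.83 in the I30R60 hearts. The sham hearts spread over more than 3 log2 units, although none reached the I30R60 hearts. The rise was 3.05 (SE 0.66, adjusted p = 0.0122), and it was not called without sham replicate 3 or without I30R60 replicate 1 or 3, with adjusted p values up to 0.0921. Cxcl1, a close relative, was more even, with 6.08, 6.62 and 5.46 in the sham hearts and 7.96, 7.99 and 8.36 in the I30R60 hearts, and rose by 2.05 (SE 0.33, adjusted p = 0.00114). Cxcl5, Cxcl9 and Cxcl10 rose by 1.30, 0.91 and 1.72, and of these Cxcl5 had its highest value, 5.06, in I30R60 replicate 1 and Cxcl10 its highest, 6.38, in replicate 3. The calls of Cxcl9 and Cxcl10 ended without sham replicate 2 or I30R60 replicate 3, and that of Cxcl9 also without sham replicate 3 or I30R60 replicate 1 (adjusted p up to 0.16 and 0.0649). Only Ccl19 rose among 19 CC chemokines and receptors, with no fall, a median of 0.24 and no call once any 1 array was left out (adjusted p up to 0.193). Ccl3 had a difference of 1.80 (SE 0.54, adjusted p = 0.0868) and Ccl2 one of 0.89 (SE 0.38, adjusted p = 0.291). Of 18 interferon response genes only Irf1 rose, by 1.16 (SE 0.25, adjusted p = 0.011), and the list median was 0.02. Of 20 Toll-like receptors and innate sensors Myd88 and Clec4e rose, with a median of 0.14. The call of Irf1 ended without sham replicate 1 or I30R60 replicate 3, and that of Myd88 without sham replicate 2 or I30R60 replicate 1 (adjusted p up to 0.0713 and 0.0765).

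Adhesion molecules of the endothelium were among the largest changes. Selp, or P-selectin, on which leukocytes first roll, had values of 3.48, 3.41 and 3.59 in the sham hearts and 7.18, 6.98 and 7.20 in the I30R60 hearts. The rise was 3.62 (SE 0.46, adjusted p = 6.59e-05). The sham values of Selp too lie below the median of all values, 4.44. Sele, or E-selectin, went from 4.70, 5.19 and 4.62 to 7.12, 7.03 and 7.95, a rise of 2.53 (SE 0.40, adjusted p = 0.000843), with I30R60 replicate 3 the highest. Icam1, which holds leukocytes firmly, rose by 1.79 (SE 0.29, adjusted p = 0.00117), also with the highest value in replicate 3. These were the only 3 rises among the 15 measured genes of this list, whose median was 0.10, and Vcam1, Icam2 and Selplg were not called. The 9 endothelial markers, such as Cdh5, had list means of 9.10 to 9.29 in the sham hearts and 8.99 to 9.15 in the I30R60 hearts, and none was called. Of 21 vascular growth factors and receptors 4 rose and none fell, with a median of -0.06. The growth factor Hbegf rose by 1.36 (SE 0.23, adjusted p = 0.00177), the endothelial early gene Apold1 by 1.77 (SE 0.27, adjusted p = 0.000526), the vasoconstrictor Edn1 by 1.21 (SE 0.27, adjusted p = 0.0157) and its receptor Ednrb by 0.56 (SE 0.14, adjusted p = 0.0337). The calls of Edn1 and Ednrb each ended without 1 of 4 arrays, sham replicates 1 and 3 and I30R60 replicate 1 among them, with adjusted p values up to 0.105 and 0.228.

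Genes that act on clotting and on the matrix rose in part. Of 15 measured genes of coagulation and fibrinolysis 6 rose and none fell, with a median of 0.45. Their products are known to dissolve or limit clots. Plaur, the urokinase receptor, had values of 4.59, 5.52 and 4.71 in the sham hearts and 7.29, 6.53 and 7.21 in the I30R60 hearts and rose by 2.07 (SE 0.32, adjusted p = 0.000797). Thrombomodulin, encoded by Thbd, rose by 0.98 (SE 0.12, adjusted p = 3.04e-05), and Plau, Plat, Procr and Tfpi2 by 0.53 to 1.04. The call of Plau ended without sham replicate 2 or 3 or I30R60 replicate 3, and that of Procr without sham replicate 1 or 2 or I30R60 replicate 1 (adjusted p up to 0.0608 and 0.131). F3 and Vwf, which start clotting and bind platelets, were not called. Among 24 genes of ADAMTS and MMP proteases and their TIMP inhibitors 6 rose and none fell, with a median of 0.19. The count was 3 without sham replicate 1 or 3 or I30R60 replicate 1, and 2 with sham replicate 3 as the only control, and the call of Timp1, a protease inhibitor gene, ended without any 1 array other than I30R60 replicate 2 (adjusted p up to 0.258). Adamts4, which cleaves proteoglycans, went from 4.52, 4.51 and 4.38 to 8.35, 7.25 and 7.23, a rise of 3.14 (SE 0.36, adjusted p = 2.01e-05). Replicate 1 was the highest I30R60 heart. Adamts1 had values of 7.80, 7.81 and 7.83 in the sham hearts and 10.05, 9.74 and 10.11 in the I30R60 hearts, with hardly any spread between the controls, and rose by 2.15 (SE 0.16, adjusted p = 9.32e-08). Of 15 matricellular genes Ccn1 and Ccn2 rose, by 1.28 (SE 0.15, adjusted p = 3.14e-05) and 1.08 (SE 0.22, adjusted p = 0.0085), and the median was 0.15. The call of Ccn2 ended without sham replicate 3 (adjusted p = 0.0675).

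Further genes that were large rises, or that the study names, were of other kinds. Ptgs2, or cyclooxygenase 2, had values of 6.27, 6.70 and 6.11 in the sham hearts and 8.34, 8.23 and 8.65 in the I30R60 hearts and rose by 2.05 (SE 0.38, adjusted p = 0.00373). It was the only one of 17 genes of prostaglandin synthesis and reception that was called. Otud1, a deubiquitinase, went from 6.12, 6.24 and 6.14 to 8.74, 9.18 and 8.75, a rise of 2.72 (SE 0.25, adjusted p = 2.47e-06). Rnd1, a GTPase that loosens cell contacts, rose by 2.58 (SE 0.32, adjusted p = 5.36e-05). Nts, which encodes the peptide neurotensin, went from 3.52, 3.58 and 3.29 to 4.95, 5.42 and 4.95, a rise of 1.65 (SE 0.16, adjusted p = 3.27e-06), and Slc5a3, a transporter of myo-inositol, rose by 1.32 (SE 0.27, adjusted p = 0.00825), a call that ended without I30R60 replicate 1 (adjusted p = 0.0692). Per2 had values of 5.33, 5.94 and 6.10 in the sham hearts and 5.51, 6.54 and 6.71 in the I30R60 hearts, which overlap, and a difference of 0.47 (SE 0.27, adjusted p = 0.49). Of the 16 measured clock genes only Bhlhe40 and Nfil3 rose, by 1.25 (SE 0.17, adjusted p = 0.000137) and 1.79 (SE 0.24, adjusted p = 0.000118).

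Some chaperone genes rose. Of 27 measured heat shock proteins and co-chaperones 9 rose and none fell, with a median of 0.15. Dnajb1, the co-chaperone that Hsp70 needs to take up its clients, had values of 6.30, 6.62 and 5.97 in the sham hearts and 9.58, 9.74 and 9.30 in the I30R60 hearts. Every I30R60 heart lay well above every sham heart, and the rise was 3.24 (SE 0.27, adjusted p = 5.04e-07), or 9.46-fold. Hsph1, a nucleotide exchange factor of Hsp70, went from 8.38, 7.72 and 8.49 to 9.76, 9.74 and 9.32, a rise of 1.41 (SE 0.28, adjusted p = 0.00729). Dnaja1 rose by 1.09 (SE 0.22, adjusted p = 0.00736), the small heat shock protein gene Hspb1 by 0.90 (SE 0.17, adjusted p = 0.00314) and Dnajb4 by 0.70 (SE 0.10, adjusted p = 0.000489). Bag3, Hspa2 and Serpinh1 rose by 0.40 to 0.65, and the ninth gene, Dnaja4, rose too. The abundant or mitochondrial chaperone genes Hspa8, Hsp90aa1, Hspd1 and Hspa4 were not called. Hspa1a and Hspa1b, the inducible Hsp70 genes, had no probe set with 1 symbol and were not analysed here. With sham replicate 3 as the only control, 2 of the 9 genes were called, and without single arrays the counts were 5 to 8, with 5 without sham replicate 2. Of 21 genes of the unfolded protein and integrated stress response 2 rose, Ppp1r15a, a phosphatase subunit that ends translation arrest, by 1.51 (SE 0.16, adjusted p = 8.28e-06) and Atf4 by 0.47 (SE 0.10, adjusted p = 0.0145), and none fell, with a median of 0.21. The call of Atf4 ended without sham replicate 1 or I30R60 replicate 1 (adjusted p up to 0.0828). None of 20 antioxidant genes was called, and Hmox1, or heme oxygenase 1, had a difference of 0.83 (SE 0.35, adjusted p = 0.297).

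**Figure D3:**
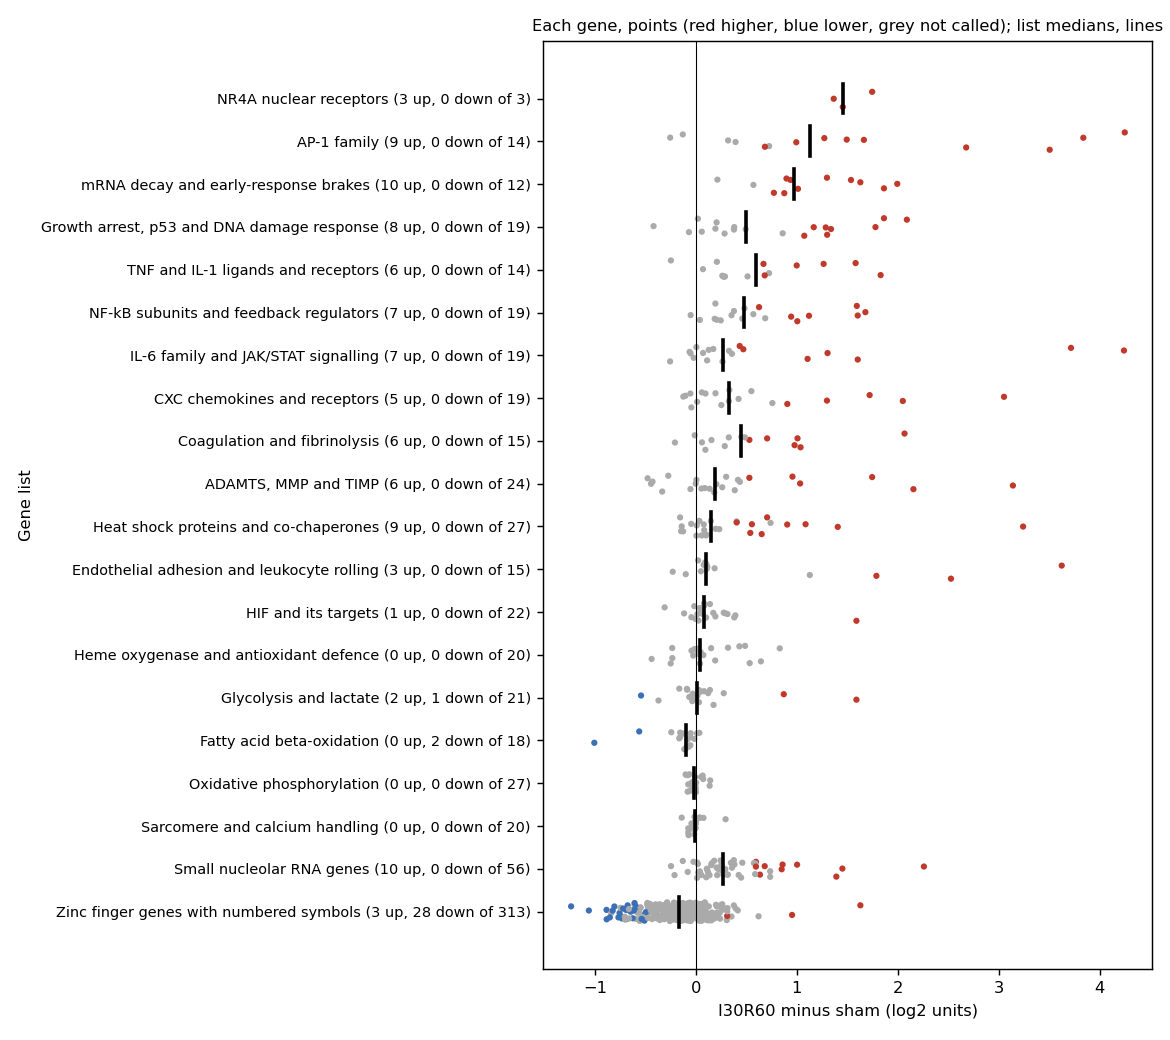
Changes (I30R60 minus sham, log2 units, x axis) of every measured gene of 20 lists (y axis), red where the gene rose, blue where it fell and grey where it was not called, with a black line at each list median. The median is 1.46 for the NR4A receptors and 1.13 for the AP-1 family, near 0 for oxidative phosphorylation and sarcomere genes and -0.17 for the numbered zinc finger genes.

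The genes of energy metabolism and contraction moved little. None of 27 oxidative phosphorylation genes, 20 sarcomere and calcium handling genes and 23 ion channel genes was called, and their medians were -0.02, -0.01 and -0.01. The changes of the oxidative phosphorylation genes lay between -0.10 and 0.14. Of 18 genes of fatty acid oxidation 2 fell and none rose, with a median of -0.10. Ehhadh, a bifunctional enzyme of peroxisomal beta-oxidation, had values of 7.45, 7.81 and 7.33 in the sham hearts and 6.61, 6.63 and 6.33 in the I30R60 hearts, and its change was -1.01 (SE 0.20, adjusted p = 0.00656). Cpt1a, which lets fatty acids into mitochondria, had values of 9.02, 9.09 and 8.96 and 8.47, 8.58 and 8.32 in the same order and a change of -0.56 (SE 0.11, adjusted p = 0.00513). Neither Ehhadh nor Cpt1a was called with sham replicate 3 as the only control, which left 0 of the 2 falls. Acot1, a PPAR-alpha target with Ehhadh, fell too, with a change of -0.76 (SE 0.18, adjusted p = 0.0274), which was not called without sham replicate 2 or 3 or I30R60 replicate 1 or 3 (adjusted p up to 0.146). In glycolysis Pfkfb3, which makes an activator of phosphofructokinase, rose by 1.59 (SE 0.24, adjusted p = 0.000526), the lactate transporter gene Slc16a3 rose by 0.87 (SE 0.16, adjusted p = 0.00297) and Pgam1 fell, with a change of -0.55 (SE 0.13, adjusted p = 0.0201). These are 2 rises and 1 fall among 21 genes, with a median of 0.01. Pfkfb3 was also the only called gene of 22 HIF genes and targets, and Vegfa, Hk2, Ldha and Pdk1 were not called. Ppp1r3c, which brings a phosphatase to glycogen, rose by 0.87 (SE 0.17, adjusted p = 0.00649). The call of Pgam1 ended without sham replicate 1 or 3 or I30R60 replicate 1, and that of Ppp1r3c without I30R60 replicate 1 (adjusted p up to 0.135 and 0.0533).

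A few stress genes of heart muscle cells rose. Nppb, which encodes B-type natriuretic peptide, had values of 10.13, 9.52 and 9.48 in the sham hearts and 10.61, 10.41 and 10.71 in the I30R60 hearts, a rise of 0.87 (SE 0.19, adjusted p = 0.0131). Xirp1, a protein of the intercalated disc, went from 9.74, 9.46 and 9.63 to 10.40, 10.60 and 10.49, a rise of 0.89 (SE 0.13, adjusted p = 0.000526), and Ankrd1 rose by 0.48 (SE 0.12, adjusted p = 0.0408). The groups of these 3 genes did not overlap, as in nearly all called genes. They were the only called genes of 17 in this list, whose median was 0.26, and Nppa, Acta1 and Rcan1 were not called. The call of Nppb ended without sham replicate 2 or 3 or I30R60 replicate 1 or 3, and that of Ankrd1 when any 1 array was left out (adjusted p up to 0.0905 and 0.183).

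Zinc finger genes with numbered symbols, a family that consists largely of KRAB repressors of transposons and other genes, made up much of the falls. Of 313 measured genes 28 fell, which is 8.9%, against 0.808% of all genes tested, and 3 rose. They account for 18.4% of all genes that fell and 1.66% of the genes tested. Their median change was -0.17, and 78.9% of them were below 0, against 55.3% of all genes. The mean level of the list was 5.36, 5.29 and 5.40 in the sham hearts and 5.15, 5.17 and 5.16 in the I30R60 hearts, so that the groups did not overlap. The falls were modest, between -0.37 and -1.24. Zfp799 had values of 6.01, 5.92 and 6.06 in the sham hearts and 4.43, 5.08 and 4.76 in the I30R60 hearts, and a change of -1.24 (SE 0.21, adjusted p = 0.00152). Zfp229 had a change of -1.06 (SE 0.22, adjusted p = 0.0095), which was not called without I30R60 replicate 1 (adjusted p = 0.0717), Zfp113 one of -0.89 (SE 0.15, adjusted p = 0.00196) and Zfp759 one of -0.89 (SE 0.12, adjusted p = 0.00018). The called genes lie on many chromosomes, with 6 of 84 on chromosome 7, 6 of 36 on chromosome 17 and 4 of 26 on chromosome 13, where such genes form clusters. The count of falls was 13 and 12 without sham replicates 1 and 3 and 11 without I30R60 replicate 1, and with sham replicate 3 as the only control it was 6, but the list median stayed between -0.20 and -0.14 when single arrays were left out. Zfp36, Zfp46 and Zfp655, the 3 that rose, include the early gene Zfp36, whose zinc fingers bind RNA. Members of this family resemble each other, and how far their probes share transcripts was not tested.

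**Figure D4:**
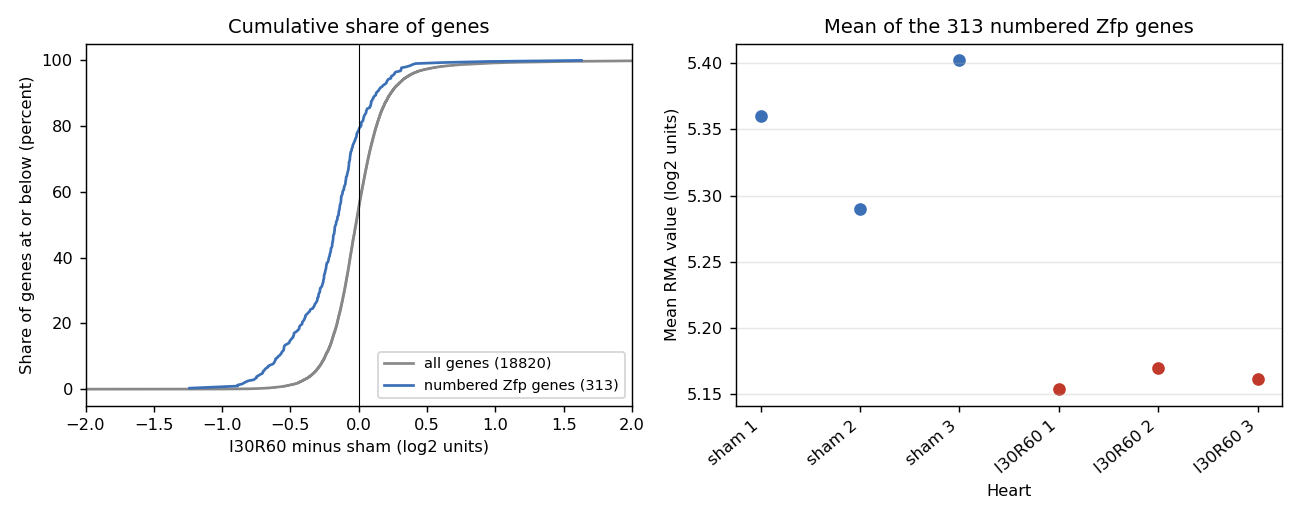
The left panel gives the cumulative share of genes (percent, y axis) against the I30R60 minus sham change (log2 units, x axis) for all 18820 genes and for the 313 numbered Zfp genes, and the right panel the mean RMA value of those 313 genes in each heart. Of the Zfp genes 78.9% lie below 0, and every I30R60 heart has a lower mean than every sham heart.

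The other large falls belong to unrelated genes. Clec4a2, a lectin of myeloid cells, had values of 3.29, 3.44 and 3.67 in the sham hearts and 2.81, 2.36 and 2.66 in the I30R60 hearts, and a change of -0.86 (SE 0.18, adjusted p = 0.0112). These are low levels for the array, whose median over all values was 4.44. The call of Clec4a2 ended without sham replicate 3 or I30R60 replicate 2 (adjusted p up to 0.0764). Lekr1 had values of 5.81, 6.17 and 6.04 in the sham hearts and 5.27, 4.90 and 5.34 in the I30R60 hearts. Its change was -0.84 (SE 0.16, adjusted p = 0.00517). The gene 0610038B21Rik was also among the 10 largest falls, but was not called without any 1 array other than I30R60 replicate 2 (adjusted p up to 0.22).

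Several small RNA genes rose, and where a measured protein-coding gene holds one of them, that gene was not called. Such RNAs are cut from introns or longer transcripts, and the probe sets may read the precursor or the mature form. Of 56 snoRNA genes, whose products guide the modification of ribosomal and other RNAs, 10 rose and none fell, with a median of 0.27. Snord14e had values of 7.05, 7.37 and 6.93 in the sham hearts and 9.48, 9.15 and 9.49 in the I30R60 hearts, and rose by 2.26 (SE 0.19, adjusted p = 7.20e-07). It lies within Hspa8, whose own change was 0.19 (SE 0.08, adjusted p = 0.247). Snord118, which takes part in ribosomal RNA processing, rose by 1.45 (SE 0.26, adjusted p = 0.00264), and Snora74a, Snora73b and Snora20 by 1.39, 1.00 and 0.86. The calls of Snora74a and Snora73b ended without sham replicate 1 or I30R60 replicate 1, that of Snora73b also without sham replicate 3 or I30R60 replicate 2, and that of Snora20 without sham replicate 1 or 3 or I30R60 replicate 3 (adjusted p up to 0.0601, 0.235 and 0.0883). Snora20 lies within Tcp1, Snora31 within Tpt1 and Snora33 within Rps12, and none of these 3 host genes was called. No measured protein-coding gene was found around Snora61, Snora73b, Snora74a, Snord118, Snord52 and Snord85. The same holds for the microRNA genes Mir212 and Mir193a, described below, and other kinds of host were not examined. Without sham replicate 1 or I30R60 replicate 1 the count of snoRNA genes was 4, without replicate 3 of either group 6, and with sham replicate 3 as the only control it was 1.

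The microRNA genes Mir107 and Mir126a fell, and Mir212 and Mir193a rose. The array does not show mature microRNAs as such. The mature forms of the genes that fell are printed here because they are 2 of the 10 largest falls, from RefSeq on GRCm38.p6, with the seed, bases 2 to 8, in capitals.
mmu-miR-107-3p, chr19:34820700-34820722, minus strand: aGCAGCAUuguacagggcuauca
mmu-miR-107-5p, chr19:34820737-34820759, minus strand: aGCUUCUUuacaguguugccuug
mmu-miR-126a-3p, chr2:26591402-26591423, plus strand: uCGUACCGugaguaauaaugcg
These seeds differ from each other. Mir107 had values of 4.13, 4.78 and 4.75 in the sham hearts and 3.07, 3.73 and 3.45 in the I30R60 hearts and a change of -1.14 (SE 0.19, adjusted p = 0.00174). It lies within Pank1, a pantothenate kinase gene, which fell as well, with a change of -0.38 (SE 0.09, adjusted p = 0.0337). Mir126a, known from endothelium, had values of 5.03, 4.12 and 4.59 and 3.53, 3.93 and 3.32 in the same order and a change of -0.99 (SE 0.26, adjusted p = 0.0452), and its host gene Egfl7 had one of -0.39 (SE 0.12, adjusted p = 0.113). The call of Mir126a ended without sham replicate 1 or 3 or I30R60 replicate 1 or 3 (adjusted p up to 0.246). Mir212 rose by 0.83 (SE 0.22, adjusted p = 0.0462) and Mir193a by 0.71 (SE 0.18, adjusted p = 0.0337). In a list of 14 measured microRNA genes of the heart Mir126a was the only one called, and the median was -0.28. The muscle microRNA genes of this list, such as Mir1a-1, Mir1a-2, Mir133a-1 and Mir133a-2, were not called. Pank1, Egfl7, Mir212 and Mir193a were chosen after their values were seen.

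Neutrophil markers had higher mean levels in the I30R60 hearts, unevenly. The 14 measured neutrophil markers had mean levels of 3.78 to 3.82 in the sham hearts and of 5.17, 4.37 and 4.34 in I30R60 replicates 1, 2 and 3. Of these markers 3 rose and none fell, and the changes of all 14 lay between -0.21 and 2.15. Cxcr2, Csf3r, Mmp9, Ngp, Camp, Ltf, Clec4d and Trem1 were among those not called. The sham means of the list lie below the median of all values on the arrays, 4.44. Higher means were not limited to reperfused hearts, since I30 hearts had list means of 3.87 to 5.04. The median change of the list against sham was 0.555 after I30 and 0.707 after I30R60. Lcn2, or lipocalin 2, which other cells also make, had values of 6.24, 6.07 and 6.32 in the sham hearts and 9.12, 8.15 and 7.80 in the I30R60 hearts and rose by 2.15 (SE 0.46, adjusted p = 0.0108). Mmp8, the neutrophil collagenase, rose by 1.75 (SE 0.44, adjusted p = 0.0345) and the decoy receptor Il1r2 by 1.26 (SE 0.28, adjusted p = 0.0169). The granule genes S100a8 and S100a9 had differences of 1.22 (SE 0.34, adjusted p = 0.0633) and 1.03 (SE 0.32, adjusted p = 0.101), and Retnlg had one of 1.33 (SE 0.50, adjusted p = 0.208). The call of Mmp8 also ended without any 1 sham heart (adjusted p up to 0.237). Replicate 1 had the highest value of all I30R60 hearts for Lcn2, Mmp8, Il1r2, S100a8, S100a9 and Retnlg, and without it none of the 14 genes was called, while 1 was without any 1 sham heart. Replicate 1 was also the highest I30R60 heart for 179 of the 312 genes that rose. The part of neutrophils in the rises of Il1b, Cxcl2 and other genes that they express was not tested. None of the markers of fibroblasts, smooth muscle, macrophages, lymphocytes, platelets, red cells, lung epithelium and fat was called in the I30R60 hearts. Of the 7 mesothelial markers Wt1 rose, by 0.82 (SE 0.20, adjusted p = 0.0281), with a list median of -0.21, and was not called without sham replicate 2 or 3 or I30R60 replicate 1 or 3 (adjusted p up to 0.141).

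The direct comparison with I30 hearts gave 609 higher and 424 lower genes, or 3.24% and 2.25% of the genes tested. The I30R60 hearts had an hour of reperfusion and were also taken later after the start of ischemia. Reperfusion and this later time cannot be told apart. With a filter on dim genes the split was 693 higher and 100 lower, and with only the arrays compared 184 higher and 37 lower. It shares the I30R60 arrays with the comparison above. Fosb was higher after I30R60 than after I30 by 3.46 (SE 0.49, adjusted p = 0.000242), Il6 by 3.27 (adjusted p = 0.00031) and Dnajb1 by 2.87 (adjusted p = 6.42e-06). Socs3 and Adamts4 were higher by 2.75 and 2.57. Against sham, I30 hearts had changes of 0.38 in Fosb, 0.97 in Il6 and 0.38 in Dnajb1. The largest called differences in the other direction included the lung transcripts Scgb1a1, Sftpc and Cyp2f2, with -2.85, -2.54 and -1.25. The 10 lung epithelium markers had mean levels of 3.19 to 4.17 in the I30 hearts, 2.62 to 2.76 in the sham hearts and 2.69 to 2.72 in the I30R60 hearts. The part of lung tissue in the count of lower genes was not tested. The muscle microRNA gene Mir1a-2 was lower by 1.36 and the peptide transporter gene Slc15a2 by 1.57. Ptgs2 and Lcn2 were not called, with differences of 1.01 (adjusted p = 0.131) and 1.39 (adjusted p = 0.0794), and neither was Cxcl2, with 2.13 (adjusted p = 0.0638). The total of 1033 genes was 495 without I30R60 replicate 1 and 653 without I30R60 replicate 3.

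Against IP0 hearts, whose muscle had short cycles of ischemia with reperfusion, 173 genes were higher and 61 lower after I30R60, or 0.919% and 0.324% of the genes tested. With each array centred on its median the split was 114 higher and 142 lower. The IP0 and I30R60 hearts differed in the pattern and length of ischemia, the length of reperfusion and the time of sampling. These cannot be told apart. Selp was higher by 2.64 (SE 0.46, adjusted p = 0.00632), Dnajb1 by 2.54 (SE 0.27, adjusted p = 3.25e-05), Lcn2 by 2.40 (adjusted p = 0.0125), Il6 by 2.25 (adjusted p = 0.0227) and Socs3 by 2.23 (adjusted p = 0.00575). Other early genes had close means in both groups. Otud1 had mean values of 9.01 ± 0.49 after IP0 and 8.89 ± 0.25 after I30R60 (SD, n = 3), with a difference of -0.12 (SE 0.25). For Zfp36 the difference was 0.02 (SE 0.19), for Nr4a2 0.01 (SE 0.24) and for Ccn1 0.02 (SE 0.15). Ppp1r15a, Plk2 and Egr1 had differences of 0.31, 0.23 and 0.21, none of them called. The 5 largest called differences in the other direction were those of the muscle microRNA genes Mir1a-2, Mir1a-1, Mir133a-1 and Mir133a-2 and the protease gene Adam19. Mir1a-2 had mean values of 2.54 in sham, 4.86 in IP0 and 2.20 in I30R60 hearts, and was lower after I30R60 than after IP0 by 2.66 (SE 0.20, adjusted p = 5.43e-07). Against sham hearts, Mir1a-1 and Mir133a-1 had differences of 0.05 and -0.59 after I30R60, neither of them called. Per2 was higher after I30R60 than after IP0 by 1.14 (SE 0.27, adjusted p = 0.0409), and the effect of single arrays on this value was not tested. The total of 234 genes was 72 without I30R60 replicate 1, 135 without I30R60 replicate 3, and 60, 94 and 84 without IP0 replicates 1, 2 and 3.

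**Figure D5:**
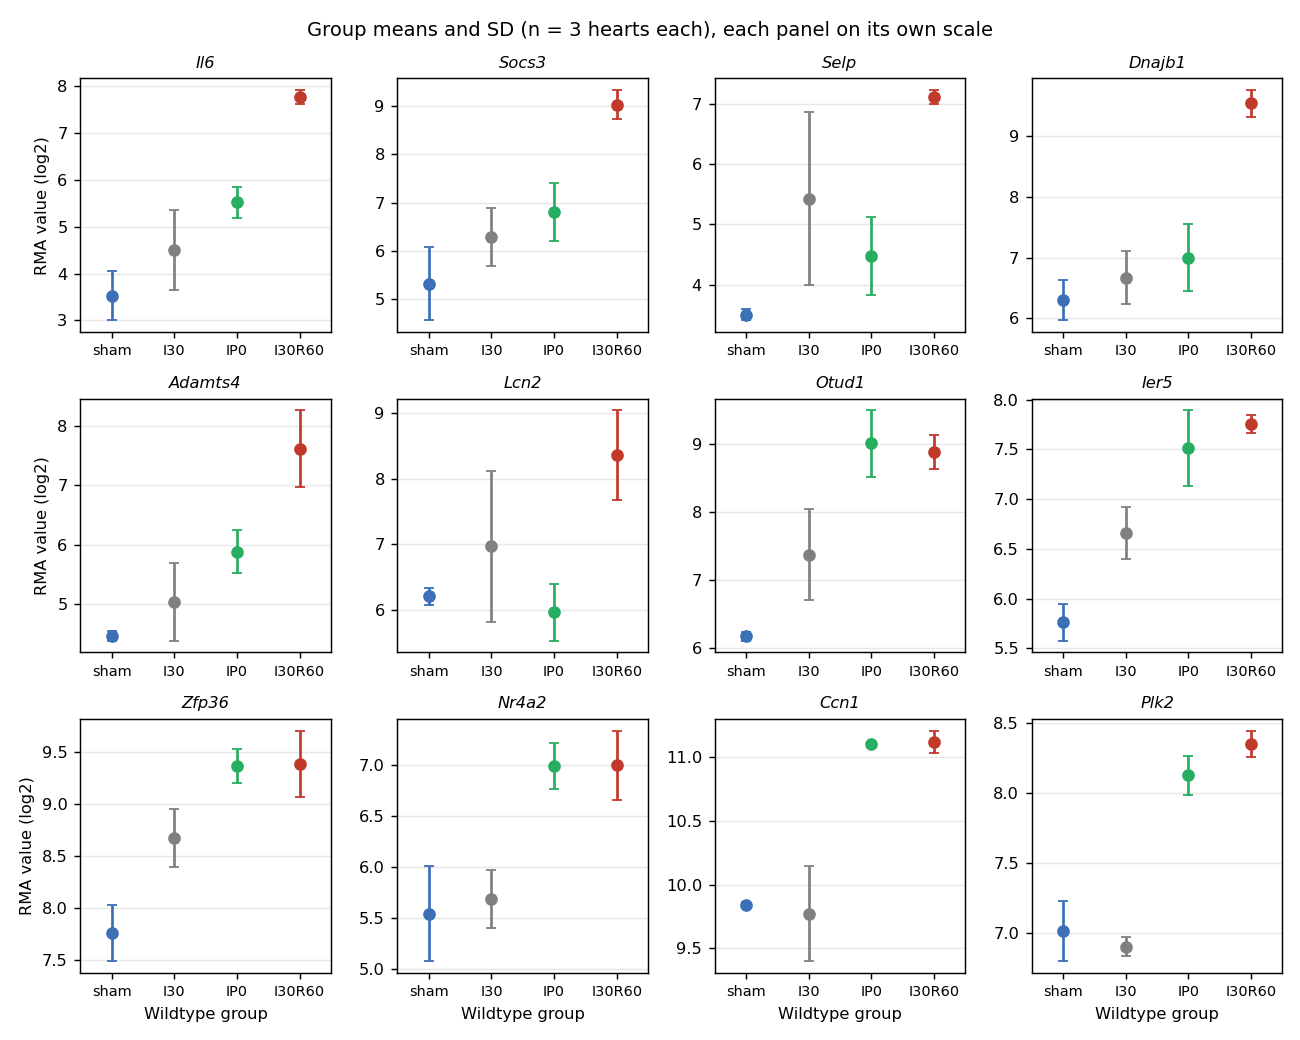
Mean RMA values (log2 units, y axis, each panel on its own scale) with SD over 3 hearts in wildtype sham, I30, IP0 and I30R60 hearts for 12 genes. Il6, Socs3, Selp, Dnajb1, Adamts4 and Lcn2 have their highest means after I30R60, while Otud1, Ier5, Zfp36, Nr4a2, Ccn1 and Plk2 have close means after IP0 and I30R60.

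The interaction of genotype and treatment asks whether I30R60 changed a gene differently in wildtype and Per2-/- hearts, and limma called no gene (1034 genes, or 5.49%, at an unadjusted p under 0.05, and none in an ordinary linear model). The smallest adjusted p was 0.448. In Per2-/- hearts Il6 changed by 4.03, Socs3 by 3.97, Dnajb1 by 2.62 and Selp by 4.30. Atf3 had a change of 3.36 there, which is 0.89 less (SE 0.40). Its mean values were 8.287 in sham and 11.645 in I30R60 hearts of Per2-/- mice, beside 7.401 and 11.651 in wildtype hearts. The NR4A receptors Nr4a1 and Nr4a2 had changes of 0.37 (adjusted p = 0.451) and 0.56 (adjusted p = 0.234) in Per2-/- hearts, and the differences of 0.99 (SE 0.34, adjusted p = 0.888) and 0.90 (SE 0.35, adjusted p = 0.896) did not pass the test. Means of the NR4A list were 7.709 to 8.375 in Per2-/- sham hearts and 6.687 to 7.571 in wildtype sham hearts. After I30R60 they were 8.497 to 9.029 and 8.477 to 8.944. Klf2 changed by 0.04 in Per2-/- hearts, with a difference of 0.82 (SE 0.23, adjusted p = 0.748). Its mean values were 7.567 in sham and 7.606 in I30R60 hearts of Per2-/- mice, beside 6.834 and 7.69 in wildtype hearts. Snord14e and Nts had the smallest adjusted p in the interaction test, with changes of 0.81 and 0.70 in Per2-/- hearts.

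The letters before the starts of the rising genes were searched for binding motifs, as a description of the promoters. RefSeq promoters on GRCm38.p6 were found for 14739 of the genes tested, and the 250 bases before the start were searched on both strands for the CRE (TGACGTCA), the AP-1 site (TGANTCA), the heat shock element, the CArG box and the kappa B site. The letters of the CRE do not contain the AP-1 site. A kappa B match was found for 15 of 103 genes that rose at least 2-fold, or 14.6%, beside 5.07% of all genes tested and 3.9% of all 32851 promoters. It was found for 3 of 130 genes that fell, or 2.31%. A CRE was found for 8 of the 103 genes, or 7.77%, beside 2.39% of all genes and 1.55% of all promoters. AP-1 sites were found for 12.6% of the 103 genes and 6.97% of all genes, with 6.75% of all promoters. CArG boxes stood at 1.94% and 1.47%, with 1.47% of all promoters. The heat shock element was found for none of the 103 genes and 0.461% of all genes, with 0.466% of all promoters. This exact pattern is therefore not in the windows of Dnajb1 and Hsph1. Imperfect heat shock elements and those outside the windows were not searched for. Tnfaip3 has a further RefSeq start, whose window at chr10:19011964-19012213 holds no match and is not printed. Promoters of genes described above are printed to show where such letters lie, 5′ to 3′ and up to the base before the start, with matches in capitals.
Il6, chr5:30012864-30013113, plus strand, an AP-1 site and a kappa B site: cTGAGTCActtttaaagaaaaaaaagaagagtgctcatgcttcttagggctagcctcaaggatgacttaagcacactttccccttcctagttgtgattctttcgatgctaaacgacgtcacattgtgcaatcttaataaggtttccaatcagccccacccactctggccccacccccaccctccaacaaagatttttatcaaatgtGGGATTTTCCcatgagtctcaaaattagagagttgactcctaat
Cxcl1, chr5:90890995-90891244, plus strand, a kappa B site read on both strands: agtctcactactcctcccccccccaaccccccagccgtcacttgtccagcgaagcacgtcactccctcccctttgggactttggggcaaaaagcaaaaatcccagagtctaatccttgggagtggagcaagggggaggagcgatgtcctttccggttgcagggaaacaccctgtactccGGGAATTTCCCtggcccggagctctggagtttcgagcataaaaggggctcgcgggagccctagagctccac
Cxcl2, chr5:90903649-90903898, plus strand, a kappa B site read on both strands: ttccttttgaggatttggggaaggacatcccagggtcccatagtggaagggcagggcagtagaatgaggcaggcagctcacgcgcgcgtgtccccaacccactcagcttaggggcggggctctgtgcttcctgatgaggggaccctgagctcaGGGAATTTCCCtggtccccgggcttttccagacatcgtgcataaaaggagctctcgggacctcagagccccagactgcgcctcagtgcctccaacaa
Tnfaip3, chr10:19015411-19015660, minus strand, an AP-1 site and kappa B sites: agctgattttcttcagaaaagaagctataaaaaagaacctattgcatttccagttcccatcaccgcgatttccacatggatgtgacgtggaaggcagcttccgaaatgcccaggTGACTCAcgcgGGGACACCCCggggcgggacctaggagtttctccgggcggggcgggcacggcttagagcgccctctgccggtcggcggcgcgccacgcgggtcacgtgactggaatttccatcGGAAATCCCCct
Selp, chr1:164115014-164115263, plus strand, an AP-1 site: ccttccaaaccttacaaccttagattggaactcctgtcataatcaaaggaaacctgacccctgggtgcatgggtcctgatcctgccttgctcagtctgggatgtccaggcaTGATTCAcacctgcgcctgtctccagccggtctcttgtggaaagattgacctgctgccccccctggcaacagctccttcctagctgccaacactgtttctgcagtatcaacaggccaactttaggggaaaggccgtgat
Btg2, chr1:134079156-134079405, minus strand, a CRE: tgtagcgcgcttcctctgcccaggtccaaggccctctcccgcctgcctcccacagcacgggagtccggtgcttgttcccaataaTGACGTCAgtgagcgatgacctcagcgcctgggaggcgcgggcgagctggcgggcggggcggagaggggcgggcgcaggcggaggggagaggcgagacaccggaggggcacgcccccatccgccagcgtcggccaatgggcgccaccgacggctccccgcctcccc
Plk2, chr13:110394794-110395043, plus strand, a CRE: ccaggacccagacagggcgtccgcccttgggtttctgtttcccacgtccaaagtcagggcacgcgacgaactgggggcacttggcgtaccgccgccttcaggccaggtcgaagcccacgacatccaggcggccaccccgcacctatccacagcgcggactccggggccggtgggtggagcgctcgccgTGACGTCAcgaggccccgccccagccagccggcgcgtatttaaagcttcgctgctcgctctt
Ppp1r15a, chr7:45526269-45526518, minus strand, a CRE: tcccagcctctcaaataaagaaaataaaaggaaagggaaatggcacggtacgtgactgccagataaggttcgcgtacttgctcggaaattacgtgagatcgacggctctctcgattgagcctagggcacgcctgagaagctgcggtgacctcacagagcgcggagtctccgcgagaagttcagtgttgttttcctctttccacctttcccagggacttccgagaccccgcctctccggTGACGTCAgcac
In Il6 the kappa B site begins 44 bases before the start, and in Cxcl1 and Cxcl2 the first of the overlapping matches begins at 71 and 97 bases. The CRE begins at 62 bases in Plk2, at 166 in Btg2 and at 12 in Ppp1r15a. Of the 8 CRE genes, the printed Btg2, Plk2 and Ppp1r15a had close means after IP0 and I30R60. Their differences were 0.29, 0.23 and 0.31, none of them called. Of the 15 kappa B genes, Il6 had a difference of 2.25, which was called. Cxcl1 and Cxcl2 had differences of 1.02 (adjusted p = 0.162) and 0.43 (adjusted p = 0.865). The differences of Tnfaip3 and of the genes without a printed promoter are not given here. No split by motif can therefore be read from these values. The genes with a printed promoter were picked after their values were seen, and no test was made of motifs.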

How the data were processed

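RNA of 24 mouse left ventricles was hybridised to Affymetrix gene arrays, 3 hearts for each of 8 combinations of genotype and treatment, and the 6 wildtype sham and I30R60 arrays are compared here. The deposited log2 values were made by the authors, who imported the scans into Partek Genomics Suite and applied RMA (background correction, quantile normalization and summary per probe set over all arrays). The methods and the number of probe sets name version 1.1 of the gene array and the design text version 2.1, and the labels and the methods differ on the RNA extraction.

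Of 35555 probe sets, 21218 were paired with 1 symbol, and the probe set with the highest mean over the 24 arrays stood for each of 18820 genes. limma 3.58.1 in R 4.3.3 was fitted to all 24 arrays with 1 mean per group, which leaves 16 residual degrees of freedom, with Benjamini-Hochberg adjustment over all genes. Arrays have no read depth, their number limits the precision, and the p-values measure only the spread between these hearts. The procedure was first tested on simulated data.

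Named were the 15 largest rises and 10 largest falls with no overlap of arrays, up to 5 members of each list, genes that the study names, and the 5 largest called differences in each direction of the other comparisons. List members named beyond that were chosen after their values were seen. The genes, lists and comparisons were chosen with earlier results of these data known. Alternatives changed the normalization, the filter on dim genes, the variance model, the threshold and the arrays used. The tables held 0 columns of other samples.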

Additional observations from a re-analysis of the deposited data

Results flagged for a closer look

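Among the 14337 probe sets that are paired with several symbols or with none in the annotation used, and that entered no comparison above, 28 were higher and 14 lower after I30R60 than in sham hearts at an adjusted p under 0.05. They were given a closer look only as a count, because the probe sets name no single gene.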

How the results depend on the processing

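The 464 genes called after I30R60 were 191 when the fit held only the arrays compared, 135 without the sham arrays with high Myl7, 228 at an adjusted p under 0.01, 747 at 0.10, and 256 to 496 when single arrays were left out. The methods' t-test gave 2100 at an unadjusted threshold, 907 higher and 1193 lower, which turns the majority from rises to falls, and 2 after Benjamini-Hochberg adjustment. A filter on dim genes gave 673 and moved the share of rises from 67.2% to 55.7%. The 135 genes with at least a 2-fold change were 1 in the methods' t-test after adjustment, and 104 to 161 with single arrays left out. Against I30, 1033 became 221 with only the arrays compared, 564 after quantile normalization, 793 with the filter on dim genes, 335 at 0.01, 1845 at 0.10 and 495 to 812 with single arrays left out. Against IP0, 234 became 5 with only the arrays compared, 366 with a trended robust variance, 406 with the filter on dim genes, 47 at 0.01, 411 at 0.10 and 60 to 218 with single arrays left out. The interaction count was 0 in every alternative. Of the 112 named genes, 56 lost their call without the sham arrays with high Myl7, 37 with only the arrays compared, 109 in the methods' t-test after adjustment and 30 at 0.01. Over all alternatives 1857 values kept the call, or for Per2 the lack of one, 373 lost it and 0 reversed. Apart from smaller numbers of arrays or genes the cause was not tested. Same-numbered hearts did not deviate together (correlations of -0.037 to 0.082), and a replicate block gave 483, 138, 1060, 211 and 0 genes for the 5 counts in this order.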
